A study of Mus musculus with 12 samples.

Results

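The SLC25 carriers were taken as the rows of the gene table whose symbol is Slc25a followed by a number, which gave 47 of 29564 rows. They are described in left ventricles of 12 mice, with 1 library of poly(A) RNA per mouse and 4 mice per group, all of them wild-type mice labelled C57BL6 (C57BL/6J in the published methods). Control-Veh mice (libraries C1 to C4) were non-failing and received vehicle. HFpEF-Veh mice (V1 to V4) modelled heart failure with preserved ejection fraction (HFpEF), by means of a high-fat diet (HFD) with L-NAME, an inhibitor of nitric oxide synthases, and received vehicle. HFpEF-TYA-018 mice (T1 to T4) had that model too and were given oral TYA-018 at 15 mg/kg, a compound that inhibits HDAC6, a deacetylase. The series title speaks of a single dose and the protocol in the labels of daily doses over weeks. The paper describes sequencing of hearts taken hours after a single dose of vehicle or TYA-018. It also describes hearts after weeks of daily doses, in larger groups and with an empagliflozin arm, which these libraries lack. Neither sex nor age is in the labels, and the published methods give male mice. Each p refers to the spread between 4 mice per group whose cage and day of handling are not known. Values are CPM (counts scaled to a common library total, with TMM factors), unless given as TPM, the transcript measure that is per length and also set to a common total. A gene is called when its edgeR adjusted p is under 0.05 over the 14333 genes tested. Changes are log2 fold changes with their standard error (SE), and values of a group are mean ± SD, n = 4.

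The SLC25 family is the large set of nuclear-encoded carriers that sit mostly in the inner mitochondrial membrane and exchange nucleotides, phosphate, acylcarnitines, keto acids, amino acids, iron and cofactors between the cytosol and the matrix. In heart muscle, where most ATP is made in mitochondria, the ADP/ATP carriers and the phosphate carrier feed the ATP synthase, the carnitine carrier brings in fatty acids, and the oxoglutarate and aspartate carriers run the malate-aspartate shuttle. Differences of RNA in bulk tissue are reported here, in which fewer cells of a type and less RNA per cell cannot be told apart, and no protein or transport was measured.

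The ADP/ATP carriers are closely related to each other, and in HFpEF-Veh against Control-Veh Slc25a4 and Slc25a5 moved in opposite directions, so a stretch of their coding sequences is shown. It codes for the signature shared by ADP/ATP carriers with 21 bases on each side, taken from GENCODE M21 transcripts (GRCm38), and capitals mark bases that differ from Slc25a4.
Slc25a4 (ANT1, chr8:46206797-46211284, minus strand), coding bases 682 to 741: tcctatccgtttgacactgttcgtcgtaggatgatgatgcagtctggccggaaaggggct
Slc25a5 (ANT2, chrX:36795651-36798807, plus strand), coding bases 682 to 741: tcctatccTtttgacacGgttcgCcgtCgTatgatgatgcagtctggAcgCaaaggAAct
Slc25a31 (ANT4, chr3:40708855-40726096, plus strand), coding bases 721 to 780: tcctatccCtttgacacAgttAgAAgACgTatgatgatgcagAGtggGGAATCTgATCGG

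Slc25a5 differs from Slc25a4 at 9 of these 60 bases and Slc25a31 at 22. Over the whole coding sequence, 897 bases in both, Slc25a4 and Slc25a5 are 77.5% identical, and their longest identical run is 20 bases. No run of 31 bases in the annotated exons of Slc25a4 occurs in another gene, whereas 49.4% of those in Slc25a5 also occur in one of 13 other genes. Of these, 10 had a row, and together they held at most 39.8 counts in a library, against at least 7828 for Slc25a5. How reads were divided between Slc25a5 and these copies was not tested.

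The family divided unevenly by level. In TPM, 5 members held 93.6% of the SLC25 level in Control-Veh. Slc25a4 led with 969 TPM on average and 58.1% of the family's level, followed by the phosphate carrier Slc25a3 with 373 TPM and 22.4%. Slc25a5 (81.2 TPM) and the oxoglutarate carrier Slc25a11 (79.3 TPM) came next, and their Control-Veh libraries overlapped, while Slc25a39, a glutathione carrier, lay below both at 58.0 TPM. The carnitine carrier Slc25a20 came after these with 16.5 TPM. Every library of Slc25a4 lay above every library of Slc25a3 in Control-Veh, and those of Slc25a12 and Slc25a23, at 13.4 and 12.3 TPM, overlapped. Of the 47 members, 41 passed the filter on low counts. The 6 that did not were Slc25a2, Slc25a21, Slc25a41, Slc25a43, Slc25a48 and Slc25a54. Their highest count in any library was 26, for Slc25a2, and Slc25a54 had 0 counts in all 12 libraries, which allows up to 3 counts per library for counting error alone. The testis form Slc25a31 passed, but held only 3 to 20 counts per library. No library total was under 61.2 M counts or over 83.9 M.

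**Figure D1:**
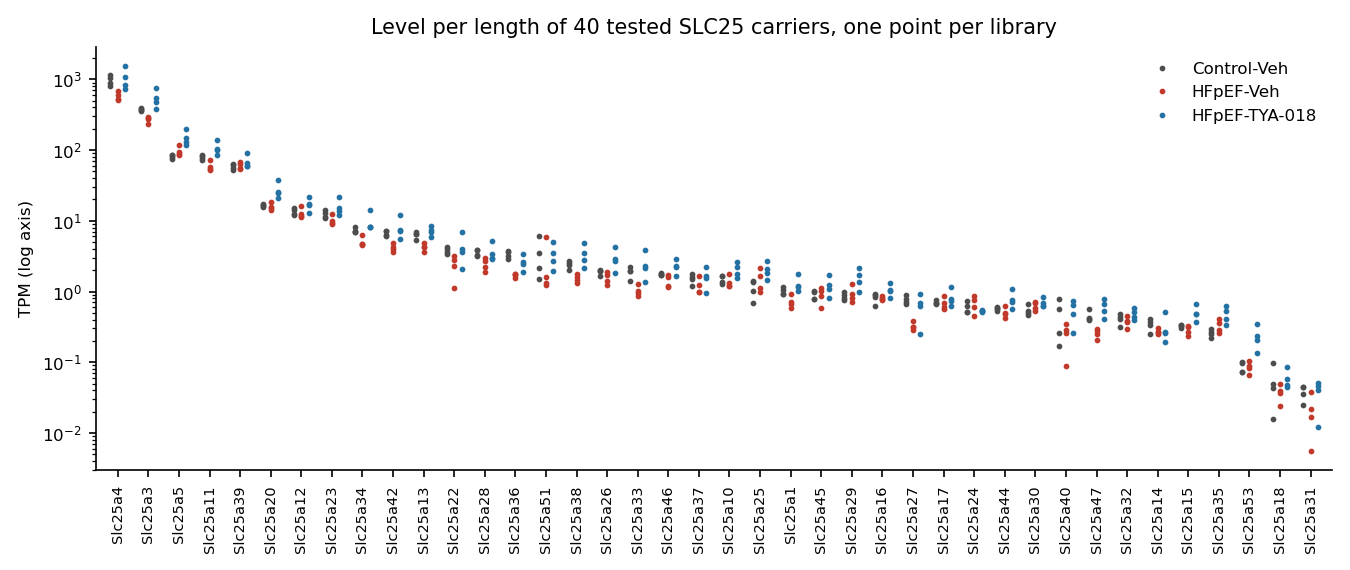
TPM on a log axis for 40 of the 41 tested members, ordered by their Control-Veh mean, with one point per library coloured by group. Levels run from 969 TPM on average for Slc25a4 in Control-Veh to below 0.1 TPM for Slc25a31 in every library.

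As a share of all counts, the SLC25 members together took 0.693% ± 0.0528 for Control-Veh, 0.505% ± 0.0296 for HFpEF-Veh and 0.696% ± 0.0798 for HFpEF-TYA-018. All 4 HFpEF-Veh libraries lay below the 8 others (two-sided exact permutation p 0.0286 against either group, which is the smallest for 4 against 4, 0.0367 adjusted over 9 tests). HFpEF-TYA-018 against Control-Veh gave an exact permutation p of 0.943. Slc25a4 alone made up 59.3% to 69.0% of these counts. The shares moved with another measure, since mitochondrially encoded genes took 45.1% ± 2.06 of counts in HFpEF-Veh against 38.8% ± 1.58 in Control-Veh and 38.9% ± 2.65 in HFpEF-TYA-018. Of counts outside those genes, the SLC25 share was 1.04% to 1.18% in Control-Veh, 0.866% to 1.00% in HFpEF-Veh and 1.06% to 1.23% in HFpEF-TYA-018, so HFpEF-Veh also lay below the other groups on that scale.

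**Figure D2:**
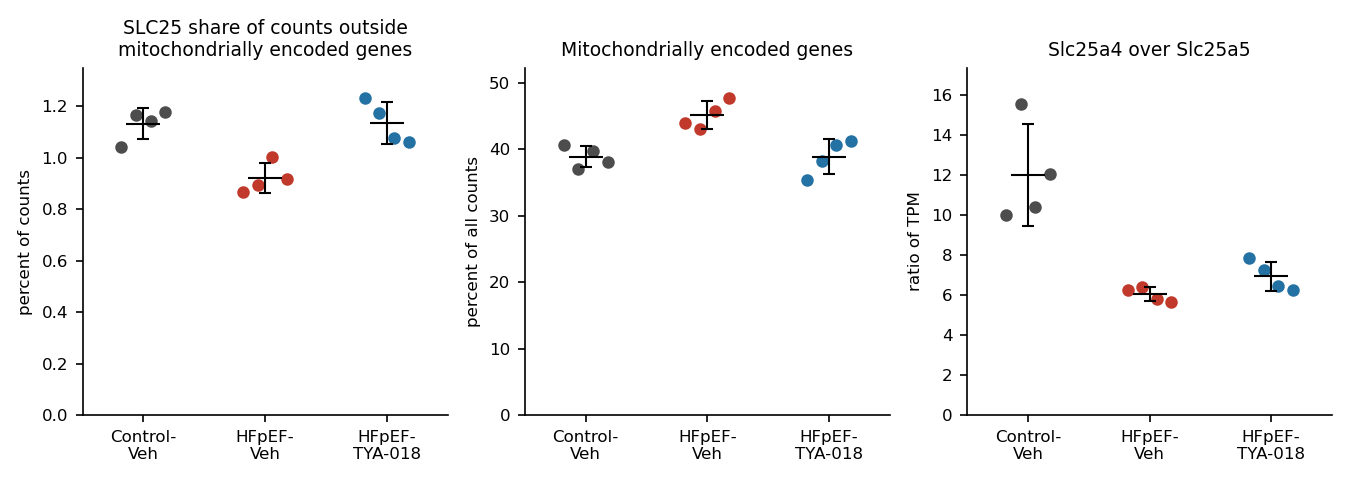
The 3 panels show measures per library by group, with the mean and SD in black: the SLC25 percentage of counts outside mitochondrially encoded genes, the percentage of all counts in mitochondrially encoded genes, and the TPM of Slc25a4 over that of Slc25a5. HFpEF-Veh is lowest in the first (0.866% to 1.00%) and highest in the second, and its ratios (5.66 to 6.41) lie below the Control-Veh ratios (9.99 to 15.6).

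The first comparison set HFpEF-Veh against Control-Veh. Of the 41 tested members, 12 were called, 10 lower and 2 higher, which is 29.3% of them beside 21.2% of all genes tested. The share called lower was 24.4%, where 10.3% of all genes were called lower, and the share called higher was 4.88%, where 10.9% of all genes were. The median log2 fold change was -0.08 over the members and -0.01 over all genes, and the members' median was -0.022 without C2 and -0.032 without C3. Among the lower members were Slc25a4, Slc25a11, Slc25a27, Slc25a33, Slc25a34, Slc25a36, Slc25a38, Slc25a42 and Slc25a47, and the higher ones were Slc25a5 and Slc25a30. With the red cell score (the mean log2 CPM of red cell markers in a library) as a covariate, edgeR called 0 members and 3 had an unadjusted p under 0.05. That score was high in the HFpEF-Veh libraries, so it and the model cannot be told apart. DESeq2 called 20 members, 7 higher and 13 lower, and limma on log2(TPM + 1) called 1, which was lower. Over all genes in each fit, DESeq2 called 1926 higher and 1829 lower, and limma 50 higher and 122 lower.

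The second comparison set HFpEF-TYA-018 against HFpEF-Veh. Of 41 members, 15 were called, 13 higher and 2 lower, or 36.6% beside 19.3% of all genes tested. The share called higher was 31.7% against 8.93% of all genes, and the share called lower was 4.88% against 10.4%. The median log2 fold change was 0.20 over the members and 0.00 over all genes. Among the higher were Slc25a3, Slc25a4, Slc25a11, Slc25a15, Slc25a20, Slc25a23, Slc25a29, Slc25a33, Slc25a34, Slc25a38, Slc25a42 and Slc25a47, and lower were Slc25a24 and Slc25a30. The red cell score as a covariate again left 0 members called by edgeR, with 5 at an unadjusted p under 0.05. DESeq2 called 18, 15 higher and 3 lower, and limma on log2(TPM + 1) called 17, all of them higher. Over all genes in each fit, DESeq2 called 1573 higher and 1835 lower, and limma 2264 higher and 66 lower.

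HFpEF-TYA-018 was also set against Control-Veh, to see how far the treated hearts lay from non-failing ones. Here 5 members were called, 4 higher (Slc25a5, Slc25a15, Slc25a20 and Slc25a29) and 1 lower (Slc25a36), which is 12.2% beside 5.86% of all genes. The shares called higher and lower were 9.76% and 2.44%, against 3.12% and 2.74% of all genes, and the median log2 fold change was 0.08, against -0.02 over all genes. DESeq2 called 11 members, limma on log2(TPM + 1) called 0 (12 at an unadjusted p under 0.05), and the red cell score as a covariate left 5. Over all genes these fits called 1514, 9 and 444. The comparisons share groups, so a member that is low in HFpEF-Veh can be called in both comparisons that use that group. Of the 41 members, 23 were called in none of the comparisons. The same count over all genes was not made, so this number has no share to be read beside.

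**Figure D3:**
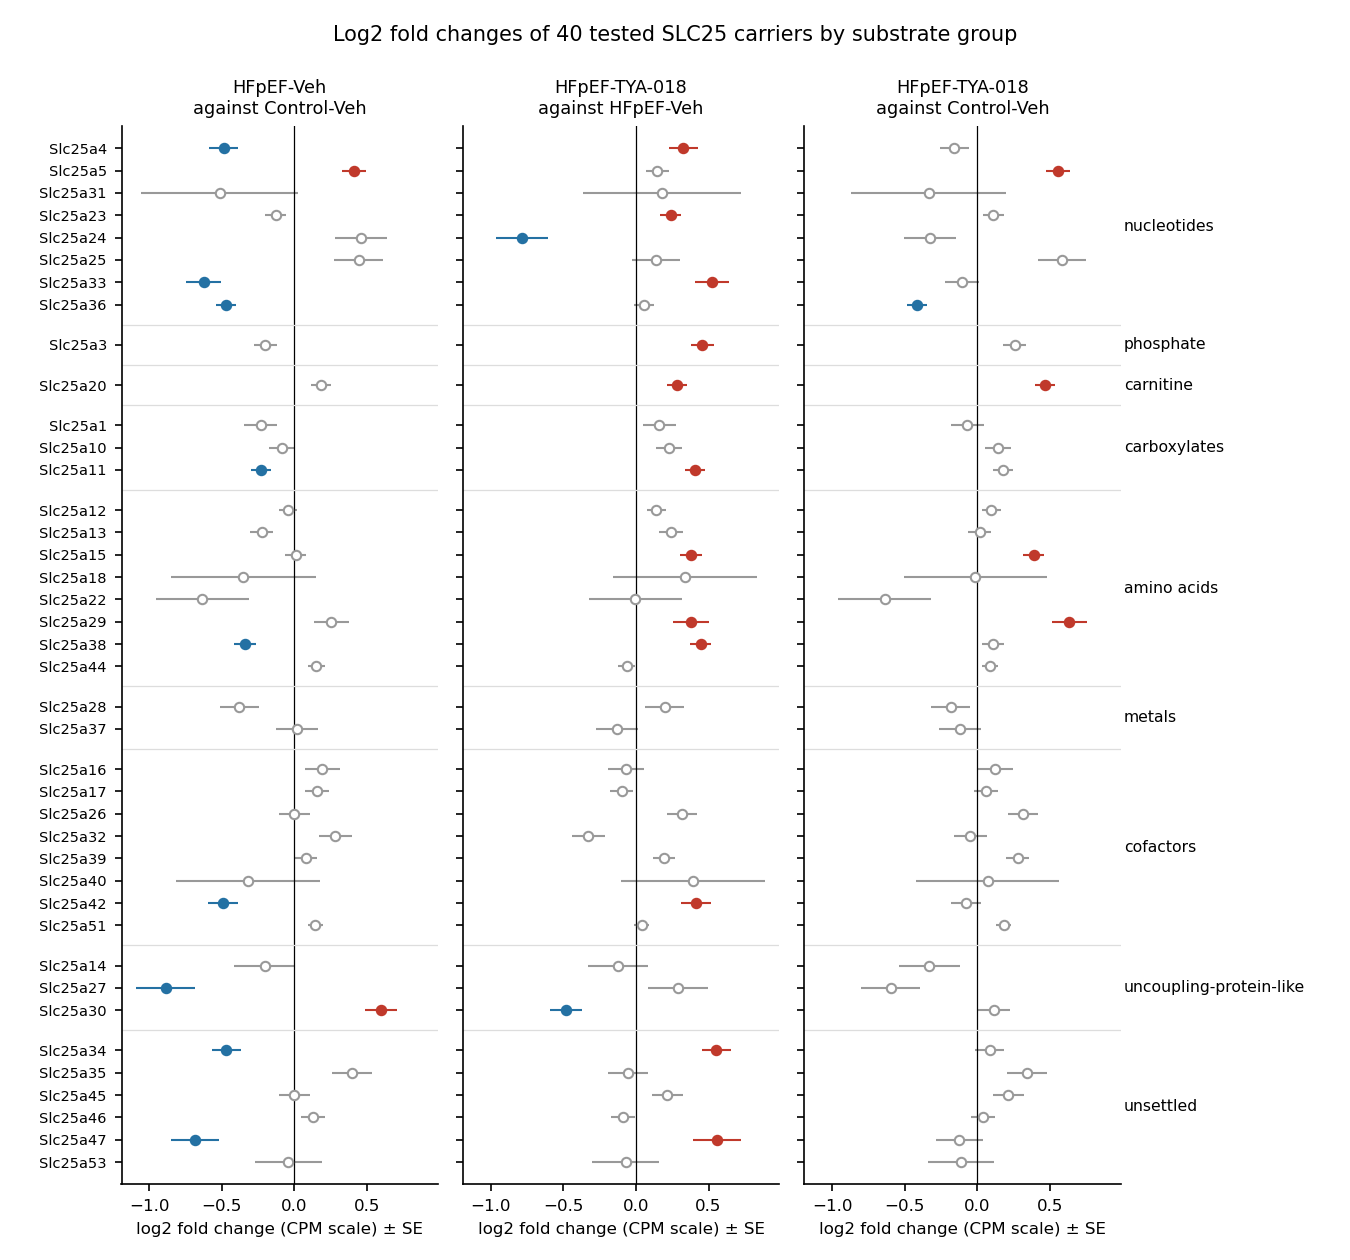
Log2 fold change ± SE of 40 of the 41 tested members in each comparison, grouped by substrate, with filled points for called members (red higher, blue lower) and open grey points for the rest. In HFpEF-Veh against Control-Veh 9 of the 11 filled points are lower, and in HFpEF-TYA-018 against HFpEF-Veh 12 of the 14 are higher.

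Other measures moved with the same groups. Of the red cell markers, 7 of 8 tested rose in HFpEF-Veh above Control-Veh and fell with TYA-018. Their summed level ran from 1563 to 2318 CPM over Control-Veh, from 4797 to 14164 CPM over HFpEF-Veh and from 2307.04 to 3581 CPM over HFpEF-TYA-018. Of 10 cardiomyocyte markers, 7 fell and 1 (Actc1) rose in HFpEF-Veh relative to Control-Veh, and 4 were higher in HFpEF-TYA-018 than in HFpEF-Veh. Their summed level was 30929 to 41497 CPM, 28138 to 30385 CPM and 32444 to 36149 CPM in the same order of groups. Of 8 fibroblast markers, 5 were higher in HFpEF-Veh and 6 lower after TYA-018, and for macrophages the numbers were 5 and 4 of 6. Other lists moved less, with 2 and 3 of 7 endothelial markers, and 1 and 1 of 6 markers of smooth muscle and pericytes. Of 4 tested fat markers, 0 were called in either comparison. Of all genes, 10.9% were called higher and 10.3% lower in HFpEF-Veh against Control-Veh. In HFpEF-TYA-018 against HFpEF-Veh these shares were 8.93% and 10.4%. No marker of these lists with a row was at 0 in all libraries. Their part in the SLC25 differences was not tested.

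Among nucleotide carriers, 8 of 9 were tested. In HFpEF-Veh against Control-Veh 3 were lower and 1 higher (median log2 fold change -0.30), in HFpEF-TYA-018 against HFpEF-Veh 3 were higher and 1 lower (0.16), and in HFpEF-TYA-018 against Control-Veh 1 was higher and 1 lower (-0.13). The shares of all genes called in each direction, given with the comparisons above, stand beside these counts and those of the groups that follow. Slc25a4, which encodes ANT1, the ADP/ATP carrier of heart and skeletal muscle, stood at 3687, 5199, 4546 and 4911 CPM in C1 to C4, 3121, 3354, 3303 and 3322 CPM in V1 to V4 and 4408, 4370.2, 3676 and 3978 CPM in T1 to T4. Every HFpEF-Veh library lay below every library of the other groups, which overlapped each other. It fell in HFpEF-Veh from 4586 ± 656 CPM to 3275 ± 105 CPM (log2 fold change -0.49 ± 0.10, adjusted p 0.00617) and rose with TYA-018 to 4108 ± 348 CPM (log2 fold change 0.33 ± 0.10, adjusted p 0.0386). The second call was close to the threshold, and without V1, V2, V3, V4, T1, T2 or T4 its adjusted p was 0.0502 to 0.109.

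Slc25a5, which encodes ANT2, the ADP/ATP carrier of most other tissues and of dividing cells, was found at 117, 126, 134 and 145 CPM in C1 to C4, 157, 171, 197 and 170.1 CPM in V1 to V4 and 192, 202, 185 and 191 CPM in T1 to T4. Control-Veh was the lowest group, below every library of both others, while HFpEF-Veh and HFpEF-TYA-018 overlapped. The rise in HFpEF-Veh was from 131 ± 11.9 CPM to 174 ± 16.7 CPM (log2 fold change 0.41 ± 0.08, adjusted p 0.00502), and HFpEF-TYA-018 was higher than Control-Veh at 192 ± 6.83 CPM (log2 fold change 0.56 ± 0.08, adjusted p 0.00433). HFpEF-TYA-018 against HFpEF-Veh did not pass the test (log2 fold change 0.15 ± 0.08, adjusted p 0.223). Markers of dividing cells were also higher in HFpEF-Veh, 6 of 6, where 10.9% of all genes were. Their summed level was 14.1 to 36.8 CPM, against 3.34 to 5.32 CPM in Control-Veh and 6.36 to 13.1 CPM in HFpEF-TYA-018. In HFpEF-TYA-018, 3 of these 6 were lower than in HFpEF-Veh, where 10.4% of all genes were. Against Control-Veh 4 of the 6 were still higher in HFpEF-TYA-018, where 3.12% of all genes were. Their part in the level of Slc25a5 was not tested.

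The ratio of the muscle to the general ADP/ATP carrier put these changes side by side. In TPM, Slc25a4 over Slc25a5 was 9.99, 15.6, 10.4 and 12.1 in C1 to C4, 6.24, 6.41, 5.82 and 5.66 in V1 to V4, and 7.83, 7.24, 6.43 and 6.23 in T1 to T4. All 8 libraries with the model lay below all Control-Veh libraries, and the HFpEF-TYA-018 ratios overlapped those of HFpEF-Veh. The ratio was chosen after the values were seen and is given with no test. The means were 12.004 ± 2.54, 6.03 ± 0.349 and 6.93 ± 0.743.

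Slc25a33 and Slc25a36 carry pyrimidine nucleotides, which mitochondria need for their own DNA and RNA. Slc25a33 was at 16.5, 21.4, 15.3 and 17.9 CPM in C1 to C4, 11.5, 11.8, 10.9 and 11.9 CPM in V1 to V4 and 18.9, 15.6, 18.2 and 13.5 CPM in T1 to T4. HFpEF-Veh formed the lowest group and did not overlap the others. It fell in HFpEF-Veh (log2 fold change -0.63 ± 0.12, adjusted p 0.00403) and rose with TYA-018 (log2 fold change 0.52 ± 0.12, adjusted p 0.0110), to a level that overlapped Control-Veh. Slc25a36 was at 38.8, 48.98, 43.4 and 42.5 CPM in C1 to C4, 31.8, 29.9, 30.5 and 33.3 CPM in V1 to V4 and 31.02, 31.96, 34.99 and 32.4 CPM in T1 to T4. Both groups with the model lay below every Control-Veh library. It was lower in HFpEF-Veh (log2 fold change -0.47 ± 0.07, adjusted p 0.00132) and in HFpEF-TYA-018 (log2 fold change -0.41 ± 0.07, adjusted p 0.00846), and HFpEF-TYA-018 against HFpEF-Veh did not pass the test (log2 fold change 0.06 ± 0.07, adjusted p 0.618).

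The ATP-Mg/phosphate carriers, which set the adenine nucleotide pool of the matrix in response to calcium, did not move as one. Slc25a24 was at 7.53, 6.17, 6.07 and 6.76 CPM in C1 to C4, 9.20, 8.71, 10.999 and 7.53 CPM in V1 to V4 and 3.56, 4.93, 5.80 and 6.94 CPM in T1 to T4. Its HFpEF-Veh libraries lay above all HFpEF-TYA-018 libraries, and HFpEF-TYA-018 was lower (log2 fold change -0.78 ± 0.18, adjusted p 0.0117). HFpEF-Veh against Control-Veh gave a log2 fold change 0.46 ± 0.18, adjusted p 0.0855, which passed without T1 (adjusted p 0.0346). Slc25a23 rose with TYA-018 from 38.2 ± 2.06 CPM to 45.05 ± 2.15 CPM (log2 fold change 0.24 ± 0.07, adjusted p 0.0366), a call lost without V1, V2, V3, V4, T1, T2 or T3 (adjusted p 0.0526 to 0.106). Slc25a25 was not called, and its largest difference was HFpEF-TYA-018 against Control-Veh (log2 fold change 0.58 ± 0.17, adjusted p 0.0613). The last of these carriers, Slc25a41, was at 0 counts in 10 of 12 libraries.

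Slc25a3 encodes the phosphate carrier, which brings phosphate into the matrix with protons. It was at 787, 932, 929.6 and 869.5 CPM in C1 to C4, 718, 756, 796 and 792 CPM in V1 to V4 and 1127, 1123, 1006 and 951 CPM in T1 to T4. HFpEF-TYA-018 was the highest group and overlapped neither of the others. It rose with TYA-018 from 765 ± 36.5 CPM to 1052 ± 87.4 CPM (log2 fold change 0.46 ± 0.08, adjusted p 0.00307), a call kept without any 1 of the 8 libraries compared. HFpEF-Veh against Control-Veh (log2 fold change -0.20 ± 0.08, adjusted p 0.0853) and HFpEF-TYA-018 against Control-Veh (log2 fold change 0.26 ± 0.08, adjusted p 0.0740) did not pass, though the former did without C1 (adjusted p 0.0254). Its promoter holds the NRF1 element, the letters GCGC, any base and TGCGC, searched on both strands and shown in capitals in RefSeq sequence of GRCm38.p6, minus strand, chr10:91124152-91124201, where it begins 214 bases before the gene's start.
Slc25a3: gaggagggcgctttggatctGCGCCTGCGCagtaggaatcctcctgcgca

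NRF1 is a nuclear factor known for genes of mitochondrial function. The element was in the promoter window (250 bases before to 50 after the start) of 2 of the 36 members with one, Slc25a3 and Slc25a31, or 5.56%, beside 5.19% of all genes. The ERR element, the letters TCAAGGTCA on either strand, was in 0 of these 36 windows and in 0.466% of all genes. A match of letters is a description of the window.

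Slc25a20 encodes the carnitine/acylcarnitine carrier, through which long-chain fatty acids enter the matrix. It was at 91.5, 106, 115 and 107 CPM in C1 to C4, 112, 115, 124 and 124 CPM in V1 to V4 and 147, 144, 141 and 149 CPM in T1 to T4. All HFpEF-TYA-018 libraries lay above all others, and Control-Veh and HFpEF-Veh overlapped. It rose with TYA-018 from 119 ± 6.15 CPM to 145 ± 3.74 CPM (log2 fold change 0.29 ± 0.07, adjusted p 0.0155) and was higher than in Control-Veh (log2 fold change 0.47 ± 0.07, adjusted p 0.00439). HFpEF-Veh against Control-Veh did not pass (log2 fold change 0.18 ± 0.07, adjusted p 0.0802) except without C3 (adjusted p 0.0490). Of the 4 listed enzymes on either side of this carrier, 3 were higher in HFpEF-TYA-018 than in HFpEF-Veh, where 8.93% of all genes were. Cpt2, which returns the acyl group to coenzyme A in the matrix, was higher in HFpEF-TYA-018 than in HFpEF-Veh (log2 fold change 0.44 ± 0.07, adjusted p 0.00311) and than in Control-Veh (log2 fold change 0.56 ± 0.07, adjusted p 0.00270). Cpt1b, the enzyme that makes acylcarnitine in muscle, was higher in HFpEF-TYA-018 than in HFpEF-Veh (log2 fold change 0.31 ± 0.09, adjusted p 0.0302), as was the matrix acyltransferase Crat (log2 fold change 0.28 ± 0.08, adjusted p 0.0280). Crat was also higher than in Control-Veh (log2 fold change 0.35 ± 0.08, adjusted p 0.0237). Cpt1a, the liver form of Cpt1b, was not called, and its value with TYA-018 was a log2 fold change -0.12 ± 0.07, adjusted p 0.269.

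Of the carboxylate carriers, 3 of 4 were tested and Slc25a11 was called. It encodes the oxoglutarate/malate carrier of the malate-aspartate shuttle and was at 278, 319.5, 314 and 293 CPM in C1 to C4, 235, 251, 279 and 262 CPM in V1 to V4 and 354, 346, 333 and 331 CPM in T1 to T4. HFpEF-Veh and Control-Veh overlapped through V3 and C1, and HFpEF-TYA-018 lay above both. It was lower in HFpEF-Veh (log2 fold change -0.23 ± 0.07, adjusted p 0.0315), a call lost without C2, C3, C4, V1, V2 or V4 (adjusted p 0.0566 to 0.0844). It rose with TYA-018 from 257 ± 18.7 CPM to 341 ± 11.1 CPM (log2 fold change 0.41 ± 0.07, adjusted p 0.00285), and that call held without any 1 of the 8 libraries. The citrate carrier Slc25a1 and the dicarboxylate carrier Slc25a10 were not called, with log2 fold changes in the same comparison of 0.16 (adjusted p 0.342) and 0.23 (adjusted p 0.0992). The difference of Slc25a10 passed without C1 (adjusted p 0.0338).

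The shuttle's other carriers, Slc25a12 (aralar) and Slc25a13 (citrin), exchange aspartate for glutamate. Slc25a12 was at 109.6, 105, 110.3 and 107 CPM in C1 to C4, 101, 93.5, 115 and 109 CPM in V1 to V4 and 117, 111, 119 and 114 CPM in T1 to T4. Its groups overlapped except HFpEF-TYA-018 and Control-Veh, and its log2 fold changes were -0.04, 0.14 and 0.10 in the order of the comparisons above, with adjusted p of 0.661, 0.144 and 0.410. Slc25a13 was at 51.7, 50.5, 43.5 and 48.3 CPM in C1 to C4, 38.8, 40.2, 45.2 and 41.7 CPM in V1 to V4 and 43.3, 48.1, 54.6 and 50.2 CPM in T1 to T4. The groups overlapped, and it stayed just outside the threshold in HFpEF-Veh against Control-Veh (log2 fold change -0.23 ± 0.08, adjusted p 0.0624) and HFpEF-TYA-018 against HFpEF-Veh (log2 fold change 0.24 ± 0.08, adjusted p 0.0518). The first passed without C3 or T1 (adjusted p 0.0449 to 0.0452) and the second without C1, V3 or T1 (adjusted p 0.0330 to 0.0469). Of 4 listed enzymes of the shuttle, 3 were higher in HFpEF-TYA-018 than in HFpEF-Veh, where 8.93% of all genes were. Got2, the matrix aspartate aminotransferase, was lower in HFpEF-Veh (log2 fold change -0.41 ± 0.07, adjusted p 0.00230) and higher with TYA-018 (log2 fold change 0.42 ± 0.07, adjusted p 0.00259), and the malate dehydrogenases Mdh1 (log2 fold change 0.45 ± 0.08, adjusted p 0.00286) and Mdh2 (log2 fold change 0.37 ± 0.12, adjusted p 0.0418) were higher with TYA-018. The malate dehydrogenases did not pass in HFpEF-Veh against Control-Veh (Mdh1 log2 fold change -0.21 ± 0.07, adjusted p 0.0656, and Mdh2 log2 fold change -0.04 ± 0.12, adjusted p 0.848). Got1, the cytosolic aminotransferase, was called in no comparison, and its value with TYA-018 was a log2 fold change 0.16 ± 0.09, adjusted p 0.2298.

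Of 8 tested amino acid carriers, 1 fell in HFpEF-Veh relative to Control-Veh, 3 were higher in HFpEF-TYA-018 than in HFpEF-Veh and 2 lay higher with TYA-018 than in Control-Veh (median log2 fold changes -0.14, 0.29 and 0.09). Of all genes, 10.3%, 8.93% and 3.12% were called in these directions. Slc25a15, the ornithine carrier, was at 5.29, 5.20, 5.33 and 5.34 CPM in C1 to C4, 5.71, 5.33, 5.42 and 4.84 CPM in V1 to V4 and 6.70, 7.08, 7.05 and 6.86 CPM in T1 to T4. HFpEF-TYA-018 stood above both other groups, which overlapped. It was higher than in HFpEF-Veh (log2 fold change 0.38 ± 0.07, adjusted p 0.00555) and than in Control-Veh (log2 fold change 0.39 ± 0.07, adjusted p 0.0129). Slc25a29, a carrier of basic amino acids, was at 4.00, 3.75, 4.34 and 5.09 CPM in C1 to C4, 4.56, 5.39, 5.39 and 5.14 CPM in V1 to V4 and 6.96, 7.79, 6.00 and 5.91 CPM in T1 to T4. HFpEF-TYA-018 again lay above the others. Against Control-Veh the difference (log2 fold change 0.63 ± 0.12, adjusted p 0.0146) held without any 1 library, and against HFpEF-Veh (log2 fold change 0.38 ± 0.12, adjusted p 0.0462) it was lost without V1, V2, V3, V4, T1 or T2 (adjusted p 0.0681 to 0.138).

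Slc25a38, which brings in glycine for heme synthesis, was at 11.8, 13.2, 11.2 and 12.6 CPM in C1 to C4, 9.54, 10.4, 9.15 and 9.62 CPM in V1 to V4 and 13.5, 14.4, 12.3 and 12.6 CPM in T1 to T4. HFpEF-Veh was below every other library. It fell in HFpEF-Veh (log2 fold change -0.34 ± 0.08, adjusted p 0.00899) and rose with TYA-018 (log2 fold change 0.44 ± 0.08, adjusted p 0.00299), whereas the red cell markers went the opposite way in both comparisons. The glutamate carrier Slc25a22 spread widely within groups, from 14.4 to 34.2 CPM in HFpEF-Veh and from 13.5 to 38.1 CPM in HFpEF-TYA-018, and was not called. Its Control-Veh libraries, at 34.9 to 46.9 CPM, lay above every HFpEF-Veh library (log2 fold change -0.63 ± 0.32, adjusted p 0.179). HFpEF-TYA-018 overlapped Control-Veh (log2 fold change -0.64 ± 0.32, adjusted p 0.265). Its effective length differed 4.02-fold between libraries, and T1, its lowest library in CPM, was its highest in TPM (6.91). The branched-chain amino acid carrier Slc25a44 (log2 fold change 0.15 ± 0.06, adjusted p 0.0761 in HFpEF-Veh against Control-Veh) and Slc25a18, with 5 to 28 counts per library, were not called either.

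The iron carriers were not called in any comparison by edgeR, by DESeq2 except in HFpEF-Veh against Control-Veh (1 of 2), or by limma on log2(TPM + 1). At an unadjusted p under 0.05 edgeR held 1 of 2 in HFpEF-Veh against Control-Veh and 0 in the others. Slc25a28 (mitoferrin-2), the form found in most tissues, was at 8.10, 6.78, 7.06 and 8.32 CPM in C1 to C4, 5.86, 4.64, 5.51 and 7.24 CPM in V1 to V4 and 7.75, 6.41, 5.94 and 6.54 CPM in T1 to T4. Its groups overlapped, and HFpEF-Veh against Control-Veh was just outside the threshold (log2 fold change -0.38 ± 0.13, adjusted p 0.0617), inside it without V4 (adjusted p 0.0222). Slc25a37 (mitoferrin-1), the form needed by maturing red cells, was at 21.9, 29.2, 28.2 and 29.5 CPM in C1 to C4, 34.6, 22.1, 27.7 and 25.6 CPM in V1 to V4 and 27.01, 26.9, 26.7 and 19.8 CPM in T1 to T4. V1 was the highest of the 12 libraries and T4 the lowest, and the groups overlapped. V1 also had the highest share of globin counts, 1.32%, where the other libraries had 0.154% to 0.773%. The reverse held for T4 and C1, each the lowest in Slc25a37 and the highest in globin share of its group. The part of red cells in the level of Slc25a37 was not tested. The log2 fold changes were 0.02, -0.13 and -0.12 in the order of the comparisons above (adjusted p 0.953, 0.560 and 0.693). Fech, which puts iron into heme, was higher in HFpEF-Veh (log2 fold change 0.53 ± 0.16, adjusted p 0.0344).

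**Figure D4:**
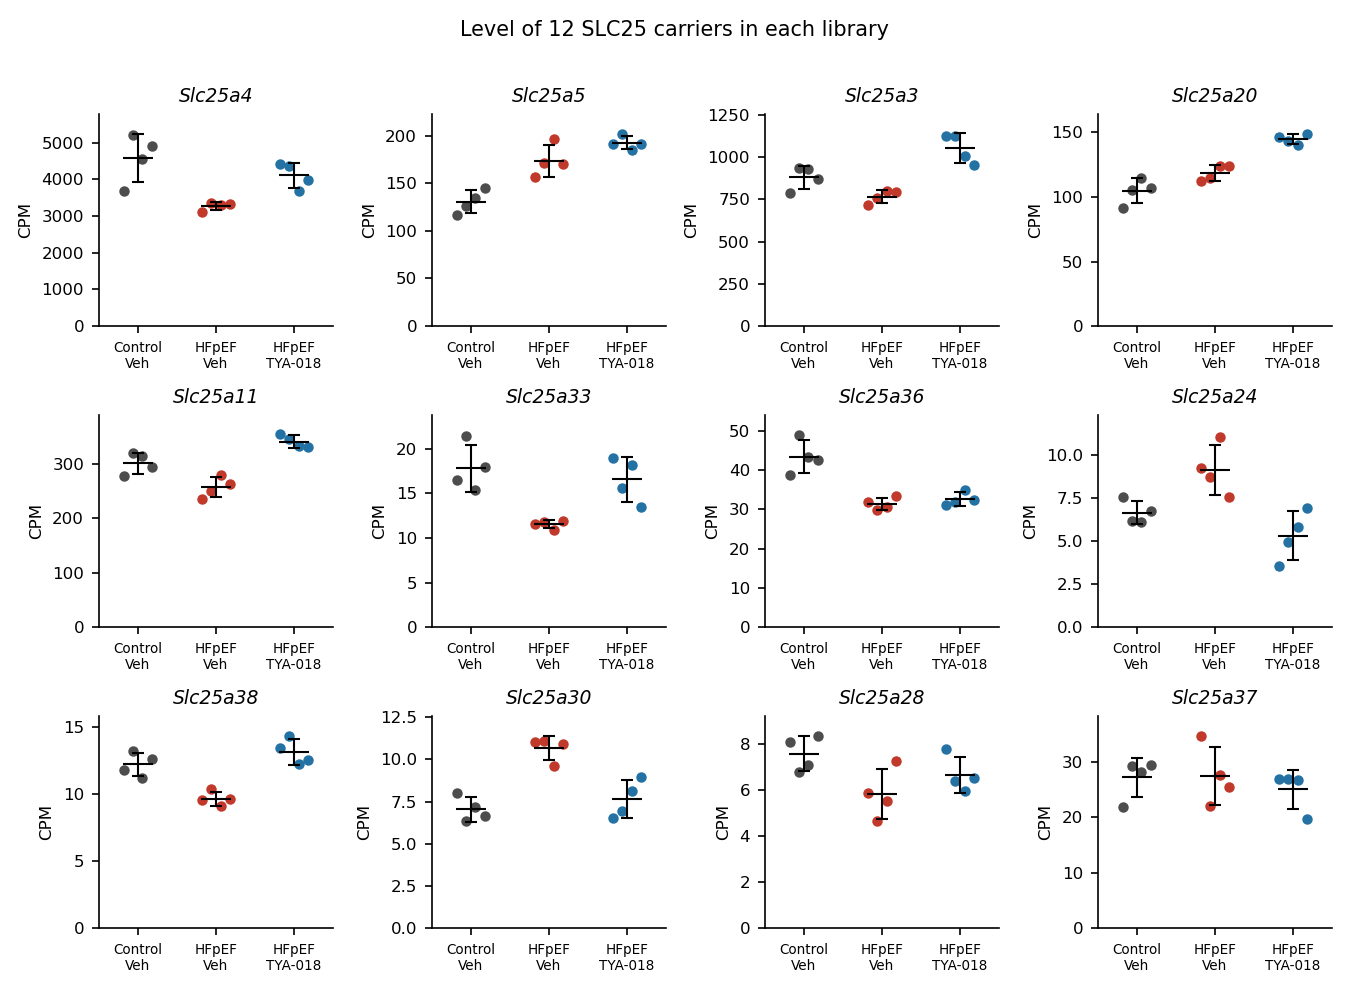
CPM of 12 members in each library, with the mean and SD of each group in black and axes that start at 0. Slc25a4, Slc25a33 and Slc25a38 are lowest in all 4 HFpEF-Veh libraries, Slc25a5 is lowest in all 4 Control-Veh libraries, Slc25a3 and Slc25a20 are highest in all 4 HFpEF-TYA-018 libraries, and the groups of Slc25a28 and Slc25a37 overlap.

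All 9 cofactor carriers were tested, and 0 were called in HFpEF-TYA-018 against Control-Veh (3 at an unadjusted p under 0.05, and 3 by DESeq2). Slc25a42, a carrier of coenzyme A, was at 55.7, 60.6, 70.3 and 72.7 CPM in C1 to C4, 51.7, 40.8, 44.5 and 47.5 CPM in V1 to V4 and 69.5, 59.97, 60.9 and 55.2 CPM in T1 to T4. HFpEF-Veh was the lowest group and overlapped neither other group. It fell in HFpEF-Veh (log2 fold change -0.49 ± 0.10, adjusted p 0.00640) and rose with TYA-018 (log2 fold change 0.41 ± 0.10, adjusted p 0.0162), the latter lost without T1 (adjusted p 0.0538). The S-adenosylmethionine carrier Slc25a26 and the NAD carrier Slc25a51 were not called, and their smallest adjusted p values were 0.0517 (Slc25a26, HFpEF-TYA-018 against HFpEF-Veh) and 0.0593 (Slc25a51, HFpEF-TYA-018 against Control-Veh). The former passed without C4, V1 or T4 (adjusted p 0.0240 to 0.0479) and the latter without C1 (adjusted p 0.0348), as did Slc25a51 in HFpEF-Veh against Control-Veh without C1 (adjusted p 0.0244). The effective length of Slc25a51 differed 4.03-fold between libraries, so its TPM moved without its counts. Slc25a39 was not called either, though its HFpEF-TYA-018 libraries lay above all others. Against Control-Veh its log2 fold change was 0.28 ± 0.08 (adjusted p 0.0533), which passed without V1 or V4 (adjusted p 0.0460 to 0.0478). Slc25a32 was not called, and its HFpEF-TYA-018 libraries lay below all HFpEF-Veh libraries. That log2 fold change was -0.33 ± 0.11 (adjusted p 0.0606), which passed without C1 or C4 (adjusted p 0.0300 to 0.0368).

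The relatives of the uncoupling proteins moved apart. Slc25a27 (UCP4) was at 6.32, 8.01, 6.47 and 7.25 CPM in C1 to C4, 4.11, 3.35, 3.45 and 4.25 CPM in V1 to V4 and 5.41, 5.45, 5.13 and 2.55 CPM in T1 to T4. Every HFpEF-Veh and HFpEF-TYA-018 library was below every Control-Veh library, and T4 was the lowest of all. It fell in HFpEF-Veh (log2 fold change -0.89 ± 0.21, adjusted p 0.0107), the largest change of a member in that comparison, and HFpEF-TYA-018 against Control-Veh did not pass (log2 fold change -0.60 ± 0.20, adjusted p 0.108). Neither did HFpEF-TYA-018 against HFpEF-Veh (log2 fold change 0.29 ± 0.20, adjusted p 0.348), where the log2 fold change was 0.49 without T4 (adjusted p 0.0153). Slc25a30 was at 8.02, 6.33, 7.19 and 6.64 CPM in C1 to C4, 11.04, 11.1, 9.62 and 10.9 CPM in V1 to V4 and 6.53, 6.93, 8.16 and 8.95 CPM in T1 to T4. Its HFpEF-Veh libraries lay above all others. It rose in HFpEF-Veh (log2 fold change 0.60 ± 0.11, adjusted p 0.00350) and was lower with TYA-018 (log2 fold change -0.48 ± 0.11, adjusted p 0.0114). The latter direction flipped in limma on TPM as deposited, with 0.052 on log2(TPM + 1) and 0.11 on log2(TPM + 0.1). It was kept in 10 of 12 alternatives, including limma on TPM rescaled without mitochondrial genes or to nuclear protein-coding genes. Slc25a14 (UCP5) was not called in any comparison (log2 fold changes -0.21, -0.12 and -0.33). Among the uncoupling proteins themselves, which share the carrier fold, Ucp2 and Ucp3 went opposite ways. Ucp2 was higher in HFpEF-Veh (log2 fold change 1.02 ± 0.08, adjusted p 8.31e-05) and lower with TYA-018 (log2 fold change -0.86 ± 0.08, adjusted p 0.000293), and Ucp3, the form of muscle, was lower in HFpEF-Veh (log2 fold change -1.25 ± 0.18, adjusted p 0.00110) and higher with TYA-018 (log2 fold change 0.60 ± 0.18, adjusted p 0.0372). They were 2 of the 4 tested genes of that list, and neither was called in HFpEF-TYA-018 against Control-Veh. There Ucp2 had a log2 fold change 0.17 ± 0.08, adjusted p 0.239. Ucp3 stayed lower but just outside the threshold (log2 fold change -0.65 ± 0.18, adjusted p 0.0528).

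Of the 9 members with no settled substrate, 6 were tested, of which 2 were lower in HFpEF-Veh and 2 higher with TYA-018. Slc25a34 was at 98.7, 131, 112 and 115 CPM in C1 to C4, 81.2, 79.8, 86.2 and 82.5 CPM in V1 to V4 and 133, 105, 109 and 136 CPM in T1 to T4. HFpEF-Veh did not overlap the other groups. It fell (log2 fold change -0.47 ± 0.10, adjusted p 0.00718) and rose (log2 fold change 0.55 ± 0.10, adjusted p 0.00405), both calls held without any 1 of the 8 libraries compared, and HFpEF-TYA-018 overlapped Control-Veh. Slc25a47, a carrier known from liver, was at 3.36, 3.59, 3.69 and 5.49 CPM in C1 to C4, 2.80, 2.26, 2.29 and 2.67 CPM in V1 to V4 and 3.23, 4.27, 3.88 and 3.42 CPM in T1 to T4. C4 was the highest library, and HFpEF-Veh was below all others. It was lower in HFpEF-Veh (log2 fold change -0.69 ± 0.16, adjusted p 0.0128) and higher with TYA-018 (log2 fold change 0.56 ± 0.16, adjusted p 0.0335), the latter lost without V2, V3, V4, T2 or T3 (adjusted p 0.0576 to 0.0972). Of 6 liver genes, 5 fell in HFpEF-Veh relative to Control-Veh, where 10.3% of all genes did. In HFpEF-TYA-018 against HFpEF-Veh 0 of these liver genes were called, though 6 had a log2 fold change above 0. Their summed level ran from 29.1 to 82.6 CPM over Control-Veh, from 2.55 to 14.05 CPM over HFpEF-Veh and from 3.29 to 71.1 CPM over HFpEF-TYA-018, and their part in the level of Slc25a47 was not tested. Slc25a35, Slc25a45, Slc25a46 and Slc25a53 were not called, with log2 fold changes between -0.11 and 0.39. The effective length of Slc25a53 differed 5.40-fold between libraries. Slc25a35 passed in HFpEF-Veh against Control-Veh without C4 (adjusted p 0.0278).

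Other transport genes of the mitochondrial membranes were counted for comparison. Of 18 tested inner membrane transporters outside the family, 4 fell and 1 rose in HFpEF-Veh relative to Control-Veh, 5 were higher and 1 lower in HFpEF-TYA-018 than in HFpEF-Veh, and 1 lay higher with TYA-018 than in Control-Veh. Of all genes, 10.3% fell and 10.9% rose in the first of these, 8.93% were higher and 10.4% lower in the second, and 3.12% were higher in the third. In HFpEF-Veh, and with TYA-018, the largest in each direction were the sideroflexins Sfxn5, lower in HFpEF-Veh (log2 fold change -0.59 ± 0.15, adjusted p 0.0143) and higher with TYA-018 (log2 fold change 0.66 ± 0.15, adjusted p 0.00967), and Sfxn3, higher in HFpEF-Veh (log2 fold change 0.36 ± 0.08, adjusted p 0.00736) and lower with TYA-018 (log2 fold change -0.44 ± 0.08, adjusted p 0.00377). The gene higher than in Control-Veh was Abcb8, an ABC transporter of the inner membrane (log2 fold change 0.24 ± 0.06, adjusted p 0.0371). Of the 3 outer membrane channels, Vdac1 (log2 fold change 0.21 ± 0.05, adjusted p 0.0208) and Vdac3 (log2 fold change 0.32 ± 0.07, adjusted p 0.00977) were higher in HFpEF-TYA-018 than in HFpEF-Veh, with 0 called in the other comparisons. Of 14 enzymes that hand substrates to the carriers or take them up, 1 rose and 4 fell in HFpEF-Veh relative to Control-Veh, 8 were higher and 0 lower in HFpEF-TYA-018 than in HFpEF-Veh, and 2 lay higher with TYA-018 than in Control-Veh, to be read beside the same shares of all genes. The largest of these changes with TYA-018 was that of Bcat2, the matrix branched-chain aminotransferase (log2 fold change 0.49 ± 0.09, adjusted p 0.00547), which had been lower in HFpEF-Veh (log2 fold change -0.48 ± 0.09, adjusted p 0.00474).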

How the data were processed

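Poly(A) RNA of left ventricles was sequenced in 12 libraries, 4 per group, and groups were taken from the sample titles. The authors quantified reads with Salmon (version 1.6.0 per the submitters' processing notes), against mouse GENCODE transcripts of GRCm38 per the published methods. The processing notes name a human build, while the rows carry mouse symbols. Labels and methods differ in read length and layout. The deposited estimated counts per gene are not normalised and are fractional where a read fits several transcripts. The deposited TPM values are scaled per length and per library by the authors. A further deposited table gives another value per gene, its effective length in bases, which was used as an offset in an alternative. All columns of values were used (0 left out).

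Counts were rounded and tested in R 4.3.3 with edgeR 4.0.16 (filterByExpr by group, TMM, 1 quasi-likelihood fit over 12 libraries, 9 residual degrees of freedom, common biological coefficient of variation 0.232). This left 14333 genes holding 99.98% of the counts. Tests were two-sided F tests with Benjamini-Hochberg adjustment over these genes. Alternatives used DESeq2 1.42.0 and limma 3.58.1 on log2(TPM + 1), kept to genes with TPM over 0 in 90% of libraries. The steps were also run on simulated counts with the same spread for every gene. This was a check of the code, and it does not show how reliable the calls in these data are. Shares of counts were compared by exact permutation tests, whose smallest two-sided p is 0.0286.

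The members, substrate groups and gene lists were chosen with earlier results of these data known. A value in every library is given for the 8 called members with the largest change in each comparison, and in any case for Slc25a3, Slc25a4, Slc25a5, Slc25a20, Slc25a11, Slc25a12, Slc25a13, Slc25a28 and Slc25a37. Other called members are given by group values. From the lists of other transport genes and enzymes, called genes are counted and the largest in each direction is named. Further enzymes beside the carriers were named after their values were seen. Results of 2 genes are not reported here by name, and the figures leave them out, while counts over the members and lists include them. Promoter sequences are from RefSeq (GRCm38.p6) and coding sequences from GENCODE M21.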

Additional observations from a re-analysis of the deposited data

Results flagged for a closer look

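In 4 of 123 pairs of a group and a member, 1 library stood apart from the other 3 by Dixon's criterion (its gap to the nearest of the others over the range of the group), where chance gives about 1 in 20, or 6.15 pairs. Slc25a27 was at 2.55 CPM in T4, against 5.13 to 5.45 CPM in the other HFpEF-TYA-018 libraries, and without T4 its log2 fold change against HFpEF-Veh went from 0.29 to 0.49 (edgeR adjusted p 0.348 and 0.0153). Slc25a37 was at 19.8 CPM in T4, against 26.7 to 27.0 CPM. Slc25a30 was at 9.62 CPM in V3, against 10.9 to 11.1 CPM in the other HFpEF-Veh libraries. Slc25a47 was at 5.49 CPM in C4, against 3.36 to 3.69 CPM in the other Control-Veh libraries.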

How the results depend on the processing

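Over the 41 members, the 3 comparisons and all alternatives, 2526 of 2946 values kept their direction and side of the threshold, 163 lost the call, 60 gained one, 10 turned direction with a call in at least 1 of the fits, and 187, from 31 members, turned direction with a call in neither. DESeq2 size factors, and leaving out mitochondrially encoded genes, changed no member's call. In HFpEF-Veh against Control-Veh, where edgeR called 3033 genes and 12 members (2 higher, 10 lower; median log2 fold change -0.08), DESeq2 called 20 members, and the effective length offset left 1444 genes. On the TPM scale limma called 172 genes and 1 member with a pseudocount of 1, 309 and 1 with 0.1 (median -0.26), 424 and 2 after rescaling without mitochondrial genes, and 1058 and 7 (2 higher, 5 lower) after rescaling to nuclear protein-coding genes. The red cell score as a covariate left 2 genes and 0 members (median -0.13). In HFpEF-TYA-018 against HFpEF-Veh (2767 genes, 1280 higher and 1487 lower; 15 members, 13 higher; median 0.20), the offset left 1221 genes. Limma with a pseudocount of 1 called 2264 genes higher and 66 lower, with a member median of 0.37 beside 0.16 over all genes, and with 0.1 it called 2577 higher and 64 lower (0.60 beside 0.34). Rescaled without mitochondrial genes it called 720 genes, 622 higher and 98 lower (member median 0.30), and rescaled to nuclear protein-coding genes 743 genes, 354 higher and 389 lower, and 9 members (0.14). The red cell covariate left 0 genes and 0 members. In HFpEF-TYA-018 against Control-Veh (840 genes, 5 members, median 0.08), DESeq2 called 1514 genes and 11 members, the offset 206 and 3, limma 9 and 0 with a pseudocount of 1 (median 0.17), 11 and 0 with 0.1 (0.31), 25 and 1 rescaled without mitochondrial genes (0.18) and 94 genes rescaled to nuclear protein-coding genes, and the red cell covariate 444 genes. The cause of these changes was not tested. Leaving out 1 library gave 1986 to 3992 genes, 10 to 16 members and medians of -0.12 to -0.022 in the first comparison (1986 without C4), 1485 to 3251, 11 to 19 and 0.19 to 0.23 in the second (1485 without T1, 1631 without T2), and 308 to 809, 5 to 6 and 0.035 to 0.088 in the third (543 without C2, 497 without C3, 325 without C4, 403, 308, 451 and 529 without T1 to T4). With a call in at least 1 of the fits, the direction turned for Slc25a53 in HFpEF-TYA-018 against HFpEF-Veh (0.96 with the offset, 0.18 and 0.81 by limma with pseudocounts of 1 and 0.1, 0.31 and 0.41 after the rescalings) and against Control-Veh (0.49 rescaled to nuclear protein-coding genes). It turned likewise in HFpEF-TYA-018 against HFpEF-Veh for Slc25a30 (0.052 and 0.11) and Slc25a46 (0.42 and 0.63) by limma with pseudocounts of 1 and 0.1. No paired analysis was possible because each title gives the mouse its own number and nothing ties mice across groups. Depth limits Slc25a18 and Slc25a31, with at most 28 and 20 counts in a library.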
